A study of Mus musculus with 2 samples.

Results

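The SLC25 carriers are a family of proteins, most of which move metabolites, nucleotides, cofactors and ions across the inner mitochondrial membrane. Their genes were followed in small intestinal epithelium of 1 mouse lacking Myh9 and 1 wild type mouse. Members were chosen by symbol: every row named Slc25a followed by a number, apart from 1 row that was left out, and Ucp2, an uncoupling protein of the same family. This gave 35 genes of the 12631 in the table. The counts below required that the larger of the paired levels reach 1, and 34 of the 35 genes met this; the other, Slc25a29, is described with its values. Another 12 family genes of the GENCODE M21 annotation had no row and were not analysed here.

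The Myh9-/- mouse and the wild type mouse were both C57BL/6 animals of 8 weeks. Both received tamoxifen once a day over 5 days, so the drug is shared by the comparison, and RNA of both was taken at day 5. The labels name no driver of the recombinase. The epithelium was shaken off intestinal pieces with EDTA and dithiothreitol, and its RNA was read by Illumina sequencing. Each group held 1 sample, so no value has a replicate error, no test was possible, and every difference is one between 2 libraries.

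The authors' table gives 1 expression value per gene and sample with 1 added, and a level here is that value less 1. Neither its unit nor a correction for gene length is stated, so listed values of different genes are set against each other only within paralog pairs of similar coding length. A fold is the Myh9-/- level plus 1 over the wild type level plus 1, which understates differences of genes at low levels. Ratios between the genes of a pair use the levels without the added 1, so they are not on the scale of the folds. Calls (higher, lower) use the 1.4-fold difference that the labels name. Sequencing depth is unknown.

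SLC25 carriers are built from a tandem repeat of membrane helices. In most of them it opens alternately to the cytosol and to the matrix, and most work as exchangers. In the intestine they feed oxidative phosphorylation, export citrate for lipid synthesis, run the shuttles that carry reducing equivalents, and connect the matrix steps of citrulline and glutamate metabolism with the cytosol. The substrates named here were assigned to human or mouse proteins in earlier work, and they are given as background.

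Myh9, the targeted gene, was 13.6 in the Myh9-/- library and 99.5 in the wild type library, 6.89-fold lower, which matches the labels. Epithelial markers were present in both libraries, with a summed level of 7508 in Myh9-/- and 7513 in wild type over 8 genes, of which 2 were higher and none was lower. Other markers were not balanced. Over all genes included, 15.9% were higher and 16.3% lower. T cell markers summed to 487 in Myh9-/- and 1046 in wild type, with 8 of 9 lower and none higher. Distal intestinal markers summed to 1155 in Myh9-/- and 384 in wild type (3 of 6 higher, 3 lower), and proximal markers to 11495 in Myh9-/- and 6226 in wild type (2 of 5 with a row higher, 3 lower). Fibroblast markers summed to 26.1 in Myh9-/- and 25.6 in wild type (2 of 5 higher, none lower). Absorptive enterocyte markers, at 19120 in Myh9-/- and 15917 in wild type, had 1 of 8 higher and 1 lower. The higher one, Fabp1 (6049 in Myh9-/-, 3018 in wild type), is also 1 of the 2 higher proximal markers. It counts in both sums, so these are not separate. Smooth muscle markers summed to 4.66 in Myh9-/- and 1.66 in wild type over 3 genes with a row, and both of the 2 included genes were higher. Of the adipocyte markers only Cidec had a row (29.7 in Myh9-/-, 15.7 in wild type), and no neuron or glia marker had one. In bulk samples, fewer cells of a type and less RNA per cell cannot be told apart. The part of cell mixture in the carrier values was not tested.

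Of the 34 carriers, 6 were higher in Myh9-/-, 3 were lower and 25 lay between the 1.4-fold lines. Over all 12152 genes included, 15.9% were higher, 16.3% were lower and 32.3% were called in either direction. The carriers' shares were 17.6% higher, 8.82% lower and 26.5% called in all, so the family as a whole was not called more often than other genes. Its median log2 fold was -0.08, against -0.0037 for all genes, and it changed sign to 0.024 when the libraries were scaled on totals that left out the mitochondrial genome and the 20 most abundant genes. The log2 folds ran from -0.95 for Slc25a42 to 1.06 for Slc25a22, with a median size of 0.28, against 0.31 over all genes. Carriers made up 0.451% of the listed total in Myh9-/- and 0.438% in wild type. Of the 9 called carriers, 5 had a larger level under 10. In that range 4 of 13 carriers were higher and 1 was lower, and 34.9% of all genes were called in either direction (16.6% higher, 18.3% lower). From 10 to 50, 1 of 11 carriers was higher and 1 lower, where 29.2% of all genes were called. From 50 upward, 1 of 10 carriers was higher and 1 lower, where 31.9% of all genes were called.

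**Figure D1:**
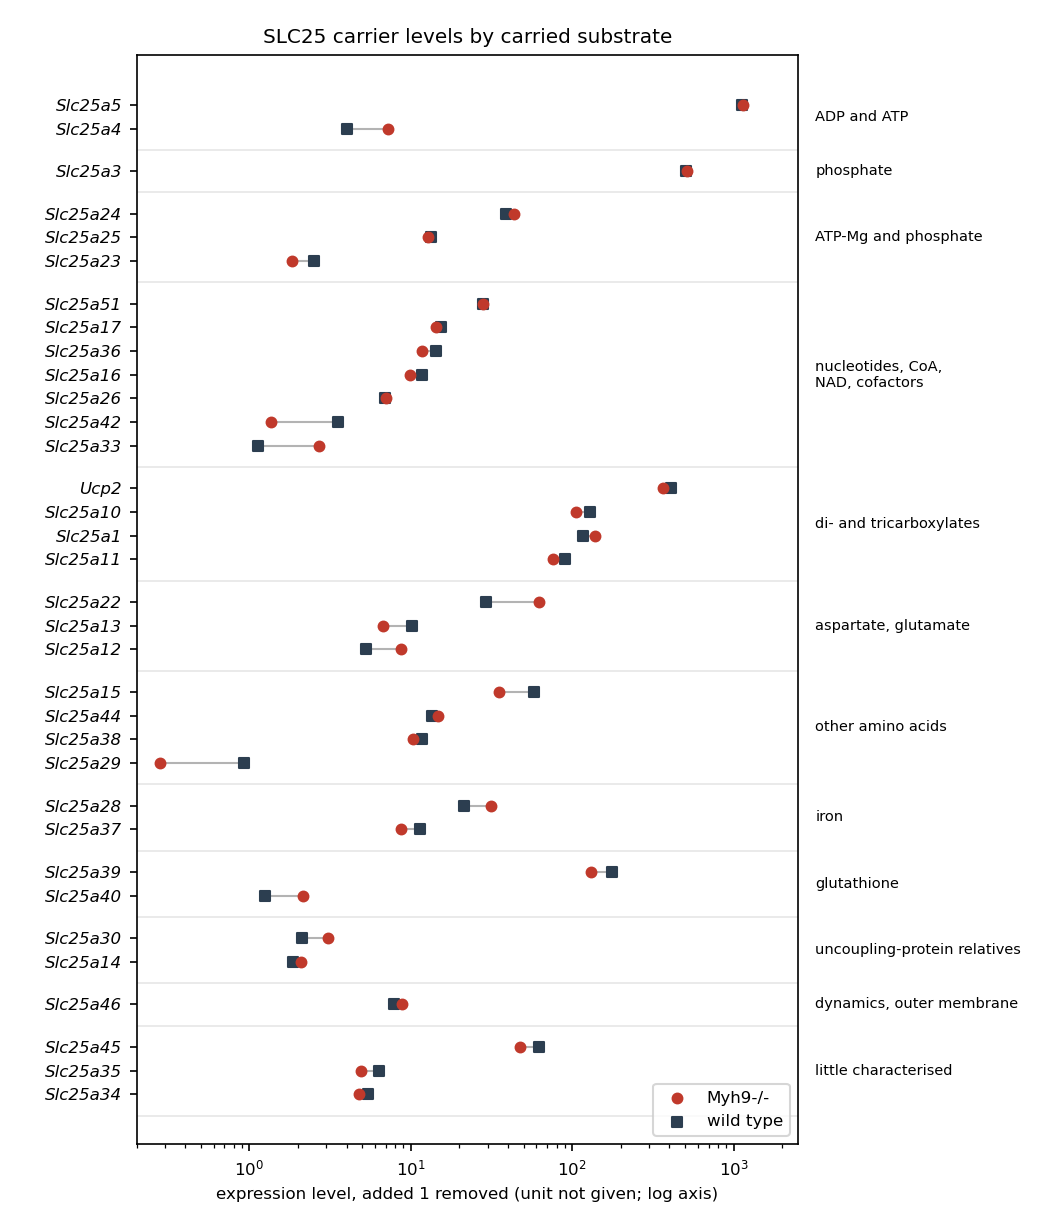
Expression level of the SLC25 carriers named in the text (horizontal log axis, unit not given) in the Myh9-/- sample (red circles) and the wild type sample (dark squares), grouped by carried substrate. The paired points of most genes lie close together. Wide gaps are those of Slc25a29 (0.28 in Myh9-/-, 0.92 in wild type) and Slc25a42 (1.36 in Myh9-/-, 3.55 in wild type). Slc25a33 (2.69 in Myh9-/-, 1.13 in wild type) and Slc25a22 (62.2 in Myh9-/-, 29.3 in wild type) also stand apart. Levels are drawn without the added 1, so gaps of low genes look wider than their folds.

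**Figure D2:**
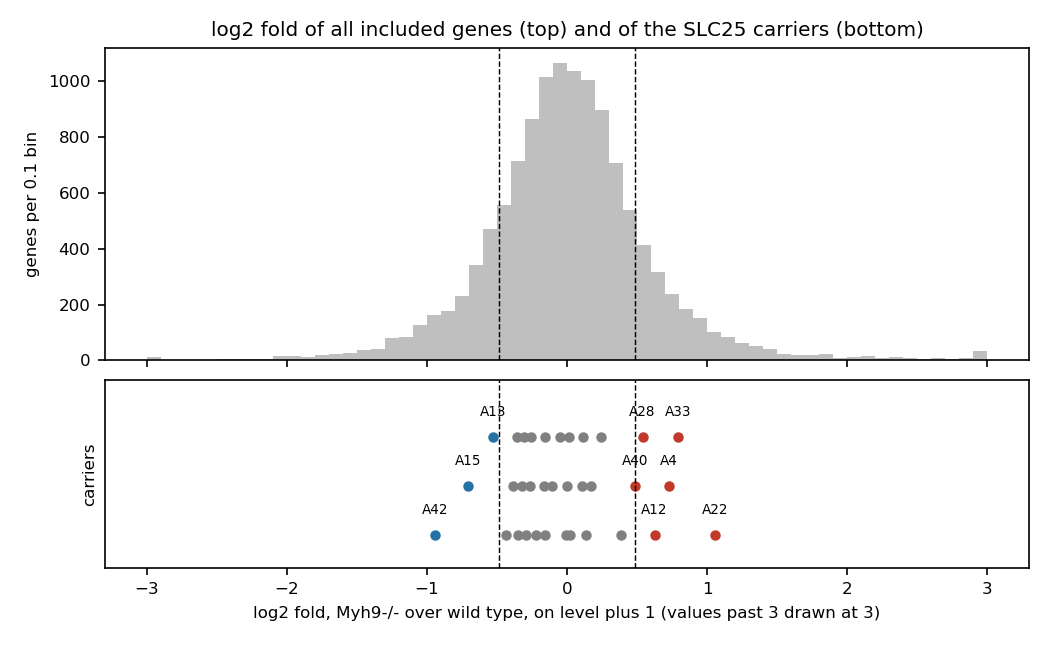
Distribution of log2 folds of the 12152 included genes (top, genes per bin) and of the 34 included carriers (bottom; vertical position has no meaning), with dashed lines at 1.4-fold. The 6 red carriers are higher in Myh9-/-, the 3 blue ones lower; A22 stands for Slc25a22 and so on.

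Slc25a5 and Slc25a3, which serve ATP synthesis directly, were nearly level between the libraries, and Slc25a4 was higher. Slc25a5, the ADP/ATP translocase that exports newly made ATP in dividing and epithelial cells, was 1134 in Myh9-/- and 1118 in wild type, a log2 fold of 0.02. Slc25a3, which imports the phosphate that ATP synthase uses, was 512 in Myh9-/- and 507 in wild type. Both lay well inside the 1.4-fold lines. Of 16 genes of ATP synthase, the enzyme they supply, and its inhibitor, 5 were lower and 1 was higher. Over all genes, 16.3% were lower and 15.9% higher. The median log2 fold of the 16 was -0.43. Atp5e, the epsilon subunit, was 326 in Myh9-/- and 792 in wild type. Atp5b, the catalytic beta subunit, was 2119 in Myh9-/- and 2920 in wild type, within 1.4-fold. The higher gene, Atp5g2, encodes a c-ring subunit and was low in both (2.71 in Myh9-/-, 1.48 in wild type).

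Slc25a4, the translocase best known from heart and skeletal muscle, was among the 6 higher carriers, at 7.27 in Myh9-/- and 4.00 in wild type, 1.65-fold. The ratio of Slc25a5 to Slc25a4 was thus 156 in Myh9-/- and 279 in wild type. Over 894 aligned coding bases the paired translocases were 77.4% identical, and the longest stretch they shared without a mismatch was 20 bases. That stretch, from coding base 322 to 341 of Slc25a5, is printed to show how short the longest identical run of the pair is; read length is not stated in the labels.
Slc25a5 and Slc25a4 shared stretch: cagttctggcgctactttgc
Slc25a4 lies on chromosome 8 from 46206797 to 46211284 and Slc25a5 on chromosome X from 36795651 to 36798807, both in mm10.

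The calcium-regulated ATP-Mg/phosphate carriers adjust the size of the matrix adenine nucleotide pool. Slc25a24 was 43.6 in Myh9-/- and 38.6 in wild type, Slc25a25 was 12.9 in Myh9-/- and 13.4 in wild type, and Slc25a23 was 1.84 in Myh9-/- and 2.52 in wild type. None of the 3 reached 1.4-fold.

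Among the aspartate and glutamate carriers all 3 with a row were called, 2 higher and 1 lower, where 32.3% of all genes were called. Slc25a22, a glutamate/proton symporter that brings glutamate into the matrix, was 62.2 in Myh9-/- and 29.3 in wild type. At a pseudocount of 1 its 2.08-fold was the largest fold of the family and the only one past 2-fold, above that of 96.1% of all genes included. At a pseudocount of 0.1, Slc25a33 (log2 fold 1.18) and Slc25a42 (-1.32) lay farther out than Slc25a22 (1.08), and both passed 2-fold. It lies on chromosome 7 from 141429744 to 141437892, and no other annotated gene overlaps it. Its close relative Slc25a18 had no row.

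The aspartate/glutamate exchangers Slc25a12 (aralar) and Slc25a13 (citrin) went in opposite directions. They perform the step of the malate-aspartate shuttle that sends aspartate to the cytosol. Slc25a12, the isoform of muscle and brain, was 8.69 in Myh9-/- and 5.28 in wild type, 1.54-fold higher. Slc25a13, the isoform of liver and other epithelia, was 6.74 in Myh9-/- and 10.2 in wild type, 1.44-fold lower. The ratio of Slc25a13 to Slc25a12 was 0.776 in Myh9-/- and 1.93 in wild type. On levels without the added 1 this is a 2.48-fold difference between the libraries. Scaling without mitochondrial-genome and most abundant genes ended the call of Slc25a13 (log2 fold -0.43) and kept that of Slc25a12. The pair was 70.5% identical over 2018 aligned coding bases, and its longest shared stretch was 21 bases, coding bases 1162 to 1182 of Slc25a13, printed for the same reason.
Slc25a13 and Slc25a12 shared stretch: ttctttggactgtaccgaggt
Slc25a12 spans chromosome 2 from 71271063 to 71367749 and Slc25a13 spans chromosome 6 from 6041218 to 6217173. The processed pseudogene Gm13641, on the other strand, overlaps Slc25a12, and no other annotated gene overlaps Slc25a13.

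Of the 6 enzymes of the malate-aspartate and glycerol phosphate shuttles, 2 were higher, none was lower, and the median log2 fold was 0.06. The shares of all genes were 15.9% higher and 16.3% lower. Got1, the cytosolic aspartate aminotransferase, was 52.7 in Myh9-/- and 34.5 in wild type, and its mitochondrial partner Got2 was 51.8 in Myh9-/- and 52.6 in wild type. Gpd2, the mitochondrial glycerol phosphate dehydrogenase, was 66.4 in Myh9-/- and 44.9 in wild type. Mdh2 was 1286 in Myh9-/- and 1172 in wild type.

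Slc25a15, the ornithine/citrulline exchanger, was 35.3 in Myh9-/- and 58.3 in wild type, 1.64-fold lower. It is located on chromosome 8 from 22375551 to 22398597. In enterocytes this carrier takes ornithine into the matrix and lets citrulline out. Slc25a29, which carries basic amino acids, was 0.28 in Myh9-/- and 0.92 in wild type, too low for the counts. The matrix enzymes around Slc25a15 were lower as well. Of 15 genes of glutamine, ornithine and citrulline metabolism, 6 were lower and 3 were higher, against 16.3% lower and 15.9% higher over all genes. The median log2 fold of the 15 was -0.35, and their levels summed to 752 in Myh9-/- and 1735 in wild type. Oat, ornithine aminotransferase, was 102 in Myh9-/- and 564 in wild type, 5.49-fold lower. Otc, which joins ornithine to carbamoyl phosphate, was 41.7 in Myh9-/- and 92.4 in wild type. Cps1, which makes carbamoyl phosphate, was 178 in Myh9-/- and 365 in wild type. All these lower genes act on the matrix side of the carrier, as do the others of the 6. Aldh18a1 (58.1 in Myh9-/-, 115 in wild type) starts proline and ornithine synthesis from glutamate. Glud1, glutamate dehydrogenase, was 99.8 in Myh9-/- and 201 in wild type, and Arg2, mitochondrial arginase, was 95.0 in Myh9-/- and 239 in wild type.
Ass1 and Asns were among the 3 higher genes. Ass1, the cytosolic enzyme that uses citrulline, was 16.8 in Myh9-/- and 5.66 in wild type. Asns, asparagine synthetase, was 44.3 in Myh9-/- and 24.9 in wild type.

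Other amino acid carriers were steady. Slc25a38, a glycine carrier needed for haem synthesis in red cell precursors, was 10.4 in Myh9-/- and 11.7 in wild type. Slc25a44, assigned to branched-chain amino acids in mouse brown fat, was 14.7 in Myh9-/- and 13.4 in wild type.

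The carriers of di- and tricarboxylates held no call. Slc25a1, which exports citrate for cytosolic acetyl-CoA, was 139 in Myh9-/- and 117 in wild type, 1.18-fold, and was the 1 gene of the group with a positive log2 fold. Slc25a10, the dicarboxylate carrier, was 105 in Myh9-/- and 129 in wild type. Slc25a11, the oxoglutarate/malate carrier that completes the malate-aspartate shuttle, was 75.7 in Myh9-/- and 90.5 in wild type. Both lay within 1.4-fold on the low side. Ucp2, which exports C4 metabolites and is also abundant in leukocytes, was 366 in Myh9-/- and 408 in wild type; the T cell markers given above were lower in Myh9-/-, and their part in this value was not tested. Of 13 genes of pyruvate, citrate and malate metabolism, 4 were lower and 1 was higher, against 16.3% lower and 15.9% higher over all genes. The median log2 fold of the 13 was -0.26. Me1, cytosolic malic enzyme, was 23.1 in Myh9-/- and 8.98 in wild type, whereas Me2, its mitochondrial counterpart, was 130 in Myh9-/- and 250 in wild type. Acss2, Pck1 and Pck2 were the other lower genes. Cs, citrate synthase, was 381 in Myh9-/- and 347 in wild type, and Acly, which splits exported citrate, was 37.8 in Myh9-/- and 29.8 in wild type.

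Among the 8 carriers of nucleotides and cofactors, 1 was higher and 1 was lower. Slc25a33, a pyrimidine nucleotide carrier assigned in human cells, was 2.69 in Myh9-/- and 1.13 in wild type, 1.73-fold higher. An antisense gene, Gm13068, overlaps it, and without a stated strand setting their reads could not be told apart. Its relative Slc25a36, overlapped by the antisense gene Gm16185, was 11.7 in Myh9-/- and 14.3 in wild type. The ratio of Slc25a36 to Slc25a33 was therefore 4.36 in Myh9-/- and 12.6 in wild type. Several other carriers also overlap annotated genes, and the same limit holds for them. Slc25a42, which brings coenzyme A into the matrix, was 1.36 in Myh9-/- and 3.55 in wild type, 1.93-fold lower, the lowest fold of the included carriers. It lies on chromosome 8 from 70184340 to 70212305 with no overlapping gene. Coasy, the last enzyme of coenzyme A synthesis, was also lower, at 14.9 in Myh9-/- and 24.6 in wild type. It was the 1 lower gene among 13 of coenzyme A, thiamine, NAD and FAD synthesis, where Nampt was the 1 higher gene (19.0 in Myh9-/-, 11.7 in wild type) and the median log2 fold was -0.15. The shares of all genes were 16.3% lower and 15.9% higher.

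The remaining cofactor carriers lay within 1.4-fold. Slc25a51, the NAD carrier, was 27.8 in Myh9-/- and 28.0 in wild type. Slc25a26, which imports S-adenosylmethionine, was 6.98 in Myh9-/- and 6.97 in wild type, and Lrig1, on the other strand, overlaps it. These 2 carriers were the least changed of the group. Slc25a16 was 9.93 in Myh9-/- and 11.8 in wild type. Slc25a17, a peroxisomal carrier of coenzyme A and related cofactors that lies on chromosome 15 like Myh9, was 14.2 in Myh9-/- and 15.4 in wild type. The median log2 fold of the folate, one-carbon and S-adenosylmethionine list was 0.08. In this list 3 of 8 genes with a row were higher and none lower, against 15.9% and 16.3% of all genes. All 3 are mitochondrial enzymes: Mthfd2 (15.2 in Myh9-/-, 6.53 in wild type), Mthfd1l (9.83 in Myh9-/-, 4.20 in wild type) and Shmt2 (54.6 in Myh9-/-, 28.3 in wild type).

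The mitoferrins, which bring iron into the matrix for haem and iron-sulphur clusters, also parted. Slc25a28, mitoferrin 2, the form of most tissues, was 31.3 in Myh9-/- and 21.2 in wild type, 1.45-fold higher (chromosome 19, 43663801 to 43674881). Slc25a37, mitoferrin 1, the form of developing red cells, was 8.67 in Myh9-/- and 11.3 in wild type, within 1.4-fold. The antisense genes Gm27222 and Gm27223 overlap Slc25a37, along with other annotated genes. The ratio of Slc25a28 to Slc25a37 was 3.61 in Myh9-/- and 1.87 in wild type. Erythroid markers were low: Hba-a1 was 9.99 in Myh9-/- and 4.58 in wild type, Alas2 was 0.47 in Myh9-/- and 1.04 in wild type, and 2 of the 3 with a row were higher and none lower, for a summed level of 16.4 in Myh9-/- and 7.50 in wild type. Their part in the mitoferrin values was not tested. The shares of all genes were 16.3% lower and 15.9% higher. Of 18 genes of iron-sulphur cluster and haem synthesis 2 were lower and none higher, and the median log2 fold was -0.12. These were Hscb, a co-chaperone of cluster transfer (6.95 in Myh9-/-, 14.4 in wild type), and Fdx1, a ferredoxin (17.8 in Myh9-/-, 27.2 in wild type).

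Slc25a39 and Slc25a40, linked to glutathione import in human and mouse cells, parted too. Here the called gene had the lower listed level, whereas in the mitoferrin pair it had the higher one. Slc25a39 was 131 in Myh9-/- and 177 in wild type, a log2 fold of -0.43 that stays just short of the 1.4-fold line. Slc25a40 was 2.16 in Myh9-/- and 1.25 in wild type and passed the line with the smallest margin of the 6, at 1.40-fold. Scaling to the upper quartile ended that call (log2 fold 0.46). The ratio of Slc25a39 to Slc25a40 was 60.6 in Myh9-/- and 141 in wild type.

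In 5 of the 11 paralog pairs that had both genes in the table, exactly 1 gene was called higher. The 3 ATP-Mg/phosphate carriers make 3 of the 11 pairs. In 4 of these 5 pairs the called gene had the lower listed level in wild type, and in 4 of them the other gene had a negative log2 fold, past the 1.4-fold line only for Slc25a13. The exceptions were the iron pair, where the called gene had the higher listed level, and the ADP/ATP pair, where the other gene had a log2 fold of 0.02. The pairs were listed with earlier results of these data known, and each rests on 1 sample per group. These 5 were picked because 1 gene was called higher, so the other gene was by selection not a higher call. Over all genes, 15.9% were higher and the median log2 fold was -0.0037. How often pairs of other genes would part in this way was not tested. The coding sequences were 59.0% to 77.4% identical in these 5 pairs, with shared stretches of 11 to 21 bases.

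**Figure D3:**
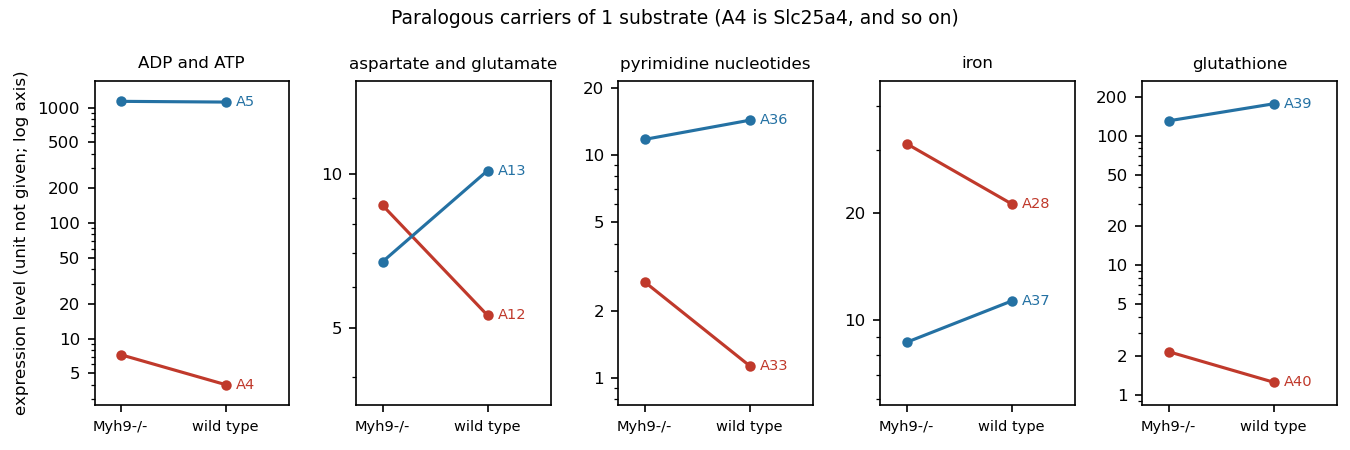
Levels (log axis, unit not given) of the 5 paralog pairs with 1 gene called higher, in Myh9-/- (left point) and wild type (right point). Red lines are the genes called higher and blue lines their partners; the red and blue lines cross only for Slc25a12 and Slc25a13.

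The rest of the family lay within 1.4-fold. The uncoupling protein relatives Slc25a30 (3.06 in Myh9-/-, 2.11 in wild type) and Slc25a14 (2.09 in Myh9-/-, 1.87 in wild type) were both low, and Slc25a30 became a higher call at a pseudocount of 0.1 (log2 fold 0.51) or none (0.54). Slc25a46, which sits in the outer membrane and takes part in mitochondrial fission, was 8.76 in Myh9-/- and 7.87 in wild type. Of the little characterised members, Slc25a45 was 47.5 in Myh9-/- and 62.6 in wild type. Slc25a34 was 4.80 in Myh9-/- and 5.47 in wild type, and Slc25a35 was 4.90 in Myh9-/- and 6.37 in wild type.

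Genes of mitochondrial content gave the setting for these values. For the counts that follow, the shares of all genes were 16.3% lower and 15.9% higher. The nuclear genes of the respiratory chain had 4 of 19 lower, none higher and a median log2 fold of -0.33, and the mitochondrial genome had 9 of 14 lower, none higher and a median of -0.60. The carriers' median of -0.08 lay above both medians. The genes of carrier import and inner membrane assembly, not all of which handle import, had none of 13 called and a median of 0.19. Among them Tomm40, the import pore, was 92.0 in Myh9-/- and 67.7 in wild type. Timm22, the carrier insertase, was 18.9 in Myh9-/- and 16.4 in wild type. Of 5 porin and Mtch genes, 2 were lower and none higher, for a median of -0.16. These were the outer membrane carrier relatives Mtch1 (66.9 in Myh9-/-, 157 in wild type) and Mtch2 (212 in Myh9-/-, 325 in wild type). Of 10 regulators of mitochondrial biogenesis, 2 were lower, none higher, and the median was -0.04. Ppargc1a, a coactivator of mitochondrial genes, was 5.21 in Myh9-/- and 15.3 in wild type, and Tfam, which maintains mitochondrial DNA, was 13.4 in Myh9-/- and 25.7 in wild type.

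**Figure D4:**
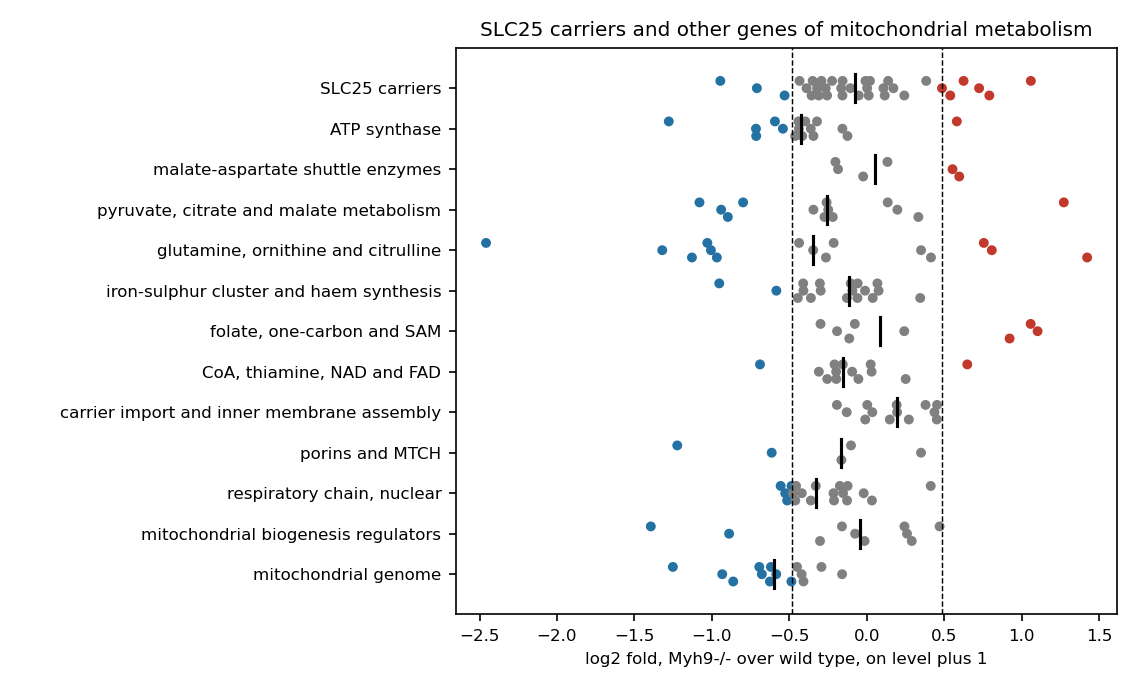
Log2 folds, Myh9-/- over wild type on level plus 1 (horizontal axis), of the 34 included carriers and of genes of 12 mitochondrial lists; each point is a gene, black bars are list medians and dashed lines mark 1.4-fold. Red points are higher in Myh9-/- and blue points lower; the carriers' bar at -0.08 lies to the right of the bars of the respiratory chain (-0.33) and the mitochondrial genome (-0.60).

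The start regions of the carriers were compared for 2 motifs, in the 250 bases before each start in RefSeq GRCm38.p6, on both strands, any overlap counted. Among the start regions used, 28 of the 35 members were found by symbol. The palindromic motif of the nuclear respiratory factor NRF1 was found in none of the 28 carriers and in 0.877% of 27025 genes. The E-box letters CACGTG, bound by MYC, USF and clock factors, were in 6 of the 28 (21.4%), against 6.86% of the 27025 genes. These 27025 were taken with or without an expression value, whereas every carrier had one, so the sets are unlike. No comparison with expressed genes alone was made. The carriers' windows also held more CpG steps, with a median of 16 against 6 for the 27025 genes, and the E-box contains such a step. The 6 were Slc25a1, Slc25a13, Slc25a14, Slc25a15, Slc25a33 and Slc25a36, of which 2 were lower, 1 was higher and 3 were between. A gene with several starts was counted once if any window held the letters. The windows of Slc25a33 (chr4:149774268-149774517, minus strand) and Slc25a13 (chr6:6217174-6217423, minus strand) are shown as E-box holders called in opposite directions, with the E-box in capitals.
Slc25a33: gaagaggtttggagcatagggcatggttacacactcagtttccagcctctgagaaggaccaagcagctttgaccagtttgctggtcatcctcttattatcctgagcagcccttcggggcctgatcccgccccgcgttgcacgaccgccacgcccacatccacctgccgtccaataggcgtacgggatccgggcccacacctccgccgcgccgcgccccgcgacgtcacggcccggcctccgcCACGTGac
Slc25a13: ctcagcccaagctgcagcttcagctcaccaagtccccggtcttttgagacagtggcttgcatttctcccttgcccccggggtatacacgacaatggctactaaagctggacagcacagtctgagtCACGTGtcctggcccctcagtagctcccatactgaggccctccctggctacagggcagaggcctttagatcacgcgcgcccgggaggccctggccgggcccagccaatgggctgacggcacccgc
A match of letters is a description of the sequence, and binding was not measured.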

How the data were processed

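RNA of intestinal epithelium was sequenced from 1 Myh9-/- and 1 wild type mouse, grouped by the genotype label. The submitters' processing notes list HISAT2, StringTie and mm10 and say nothing of versions or roles. In the deposited table stands 1 signal value per gene and sample, an expression level of unstated unit to which the authors had added 1; it was removed here. The deposited fold change, a ratio by the authors, equalled the recomputed one within a relative 1.22e-07. Columns were matched by the animal number shared with the sample titles. The listed levels summed to 634492 in Myh9-/- and 671114 in wild type, which are not read totals, and across 11774 genes they had Spearman's rho of -0.06 and -0.08 with the longest transcript length.

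Folds used a pseudocount of 1, genes entered when their larger level reached 1, and calls used 1.4-fold. The fold and call functions were tested on simulated data. Carriers with a row were named, apart from those not reported here; of the other lists, called genes and up to 2 within the threshold. Members, pairs and lists were chosen with earlier results of these data known. Positions are from GENCODE M21 (GRCm38), start regions from RefSeq, and coding identities from global alignments of the longest GENCODE coding sequences in Biopython 1.88. Alternatives were 2 pseudocounts, 2 filters, a 2-fold threshold and 3 scalings. Some family members and list genes are not reported here by name.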

Additional observations from a re-analysis of the deposited data

How the results depend on the processing

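No paired analysis was possible because each group held 1 sample, and leaving out a replicate was not possible for the same reason. At a 2-fold threshold, 1 of the 34 carriers was higher and 0 were lower, and of the 12152 genes included 546 were higher and 520 lower. With a level of at least 5 required, 28 carriers remained, 4 higher and 2 lower. Of all 8566 genes that remained at this level, 1341 were higher and 1284 lower. The carriers' median log2 fold was -0.08 as reported, -0.11 with no filter on low levels, -0.13 at a level of at least 5, 0.024 after scaling without mitochondrial-genome and the 20 most abundant genes, and -0.11 after scaling to the upper quartile. Scaling without those genes multiplied the Myh9-/- levels by 1.08 and moved the median log2 fold of all genes to 0.10, so most of the carriers' shift is that of all genes; called genes were then higher in 61.4% of cases, against 49.4% as reported. Of the 9 called carriers, 5 kept their call under all 7 settings run at 1.4-fold, and 2 (Slc25a33 and Slc25a42) kept it in the 6 settings that include genes under 5. The other 2 lost it in 1 setting each: Slc25a13 after scaling without mitochondrial-genome and most abundant genes, and Slc25a40 after scaling to the upper quartile. No called carrier changed sign. Depth is unknown, so the counting error of low carriers such as Slc25a33, Slc25a40 and Slc25a42 cannot be given.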
